A study of Mus musculus with 12 samples.

Results

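To examine the balance between matrix-degrading enzymes and their inhibitors in macrophages, the mRNA of 7 matrix metalloproteinases (Mmp2, Mmp8, Mmp9, Mmp12, Mmp13, Mmp14 and Mmp19) and 3 tissue inhibitors of metalloproteinases (Timp1, Timp2 and Timp3) was followed in mouse peritoneal macrophages. The genes were taken by symbol from a list that was drawn up with earlier results of these data known. All 10 were found among the 16920 genes of the count tables. The data comprised 12 RNA-seq libraries in 4 groups of 3, which the labels call independent biological samples without giving the number of mice behind each. Wild-type (WT) macrophages and macrophages labelled as Ythdf1 knockout (KO) each received either PBS or lipopolysaccharide (LPS, a bacterial cell wall component that activates macrophages). LPS was given at 1 μg/mL and every culture was kept for 6 h. Per the study's methods, the mice were on the C57BL/6 background, 6 to 10 weeks old, and the animals behind the KO label were Ythdf1-/-. The study made its YTHDF1-deficient mice with CRISPR/Cas9, a nuclease guided to a chosen site. The sources differ on how the cells were elicited, with starch broth in the series record and thioglycollate in the methods.

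Matrix metalloproteinases (MMPs) are zinc-dependent endopeptidases that cleave collagens, elastin and other proteins outside the cell. Most are secreted as inactive precursors, while a few, such as MMP14, are held in the cell membrane. Tissue inhibitors of metalloproteinases (TIMPs) occupy the active site of the enzymes, and TIMP2 together with MMP14 also serves in the activation of the MMP2 precursor. Macrophages use these enzymes to cross and remodel tissue, and MMP12 is known as macrophage elastase.

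The libraries held between 21546274 and 22017005 counts each. Values are given in CPM, counts per megaread after each library was scaled by TMM (trimmed mean of M values). The floor, the upper limit that a count of 0 allows, was 3 counts and came to 0.105 to 0.187 CPM. Floors cover counting error only. Ythdf1, the targeted gene, was not lost in the KO-labelled libraries, since WT PBS libraries held 43.6, 45.0 and 41.9 CPM, KO-labelled PBS libraries 55.4, 58.1 and 58.1 CPM, WT LPS libraries 212, 198 and 194 CPM and KO-labelled LPS libraries 196, 192 and 205 CPM. Every genotype comparison therefore rests on the labels. The 7 macrophage markers summed to between 17118 and 19201 CPM in all 12 libraries, a sum carried by Lyz2. With LPS in WT, 4 of them were higher and 1 lower with TMM, and 3 higher and 4 lower with library totals alone. By the KO label 2 were higher and 1 lower with TMM, and 2 higher and 5 lower with totals alone. The 6 fibroblast markers ranged in sum from 75.1 to 88.6 CPM with PBS and 119 to 132 CPM with LPS in WT, and from 32.9 to 46.2 CPM with PBS and 57.0 to 69.5 CPM with LPS in KO-labelled libraries, with Lum at 0 in the last group. In bulk RNA, fewer cells of a type and less RNA per cell cannot be told apart. WT LPS replicate 1 stood apart from its group, with a mean chi-square per gene of 31.4 and 24.4 against replicates 2 and 3, which differed from each other by 3.01.

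The levels of the genes were compared per length in each group, as CPM per kilobase of the longest coding transcript (FPKM). In resting WT cells, Mmp12 (468 ± 7.56 FPKM, mean ± SD, n = 3) and the inhibitor Timp2 (224 ± 10.1 FPKM) led all others. Mmp8 (41.2 FPKM), Mmp14 (36.5 FPKM), Mmp19 (17.3 FPKM), Timp1 (15.3 FPKM) and Mmp13 (3.96 FPKM) followed in that order, without overlap between neighbours. Mmp9 (1.28 FPKM) and Timp3 (1.20 FPKM) overlapped each other, and Mmp2, a gelatinase, was the lowest at 0.124 FPKM. In WT cells with LPS, Mmp14 led at 594 ± 40.3 FPKM, followed by Mmp12 at 455 ± 61.4 FPKM. Timp1 (140.2 FPKM), Timp2 (131 FPKM) and Mmp13 (114 FPKM) came next and could not be ranked, since the libraries of neighbours overlapped. In KO-labelled PBS libraries the order down to Mmp13 was that of WT PBS, but Mmp12 (197 ± 6.95 FPKM) and Timp2 (165 ± 4.30 FPKM) lay closer together. In KO-labelled LPS libraries Mmp14 (638 ± 10.2 FPKM) and Mmp12 (231 ± 19.9 FPKM) led, and Timp1 (148 FPKM) overlapped Mmp13 (142 FPKM).

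**Figure D1:**
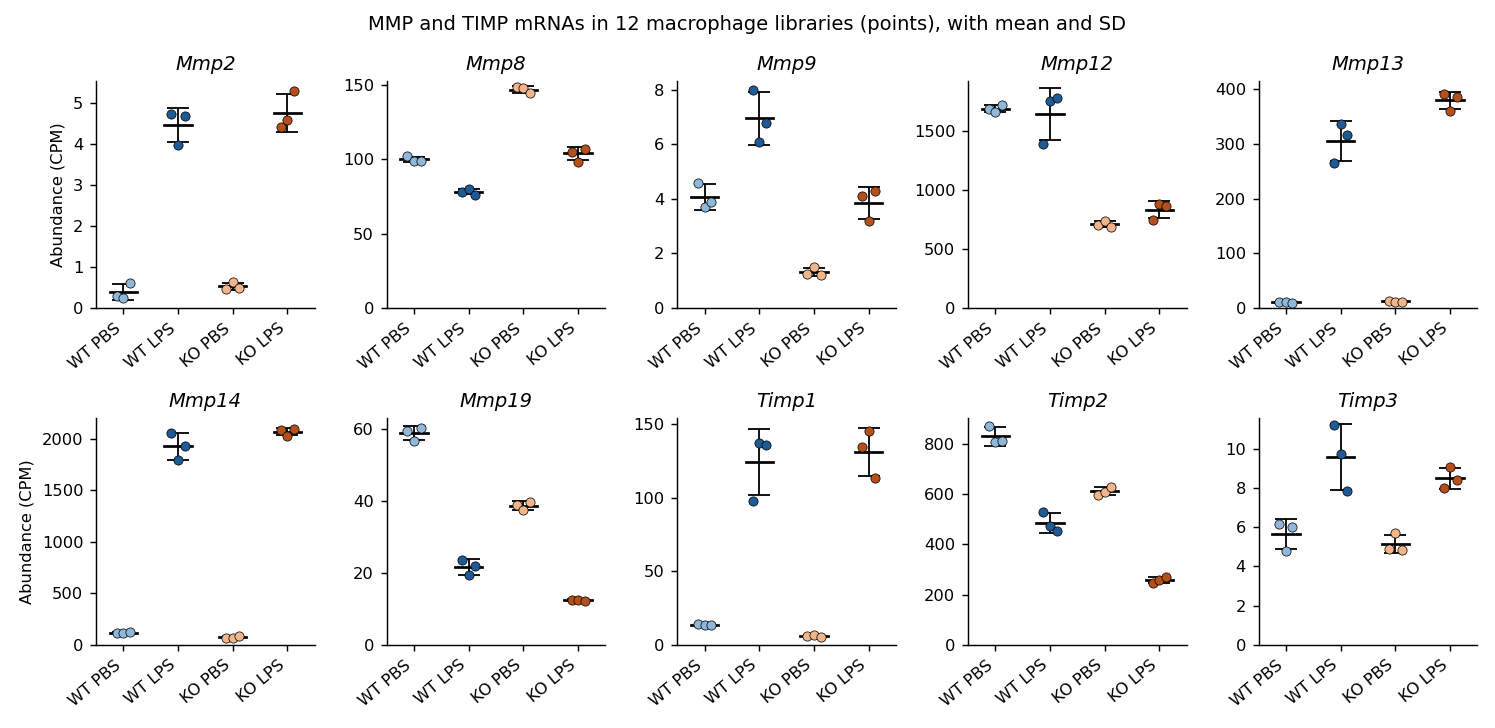
Abundance in CPM (vertical axis, linear and from 0, with its own range in each panel) of the 10 genes in the 4 groups, with 1 point per library and lines for the mean and SD of 3 libraries. Under PBS, Mmp13, Mmp14, Timp1 and Mmp2 lie near 0 beside their LPS values, while Mmp12 differs mainly between the WT and KO labels.

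The make-up of each family was then described as the share of every gene in the summed FPKM of its family, a quantity that does not depend on how libraries are scaled. Among the 7 MMP genes, Mmp12 held 82.3 ± 0.0971% in WT PBS libraries and 37.6 ± 3.97% in WT LPS libraries. Over the same step the share of Mmp14 went from 6.41 ± 0.338% to 49.4 ± 4.66% and that of Mmp13 from 0.696% to 9.47%. In the KO-labelled cells the shares also moved from Mmp12 to Mmp14, with Mmp12 at 66.4 ± 1.24% and Mmp8 at 20.5 ± 0.373% under PBS, and Mmp14 at 60.2 ± 1.02% and Mmp12 at 21.7 ± 1.72% under LPS. Among the 3 inhibitors, Timp2 held 93.1 ± 0.126% in WT PBS and 95.5 ± 0.543% in KO-labelled PBS libraries. With LPS its share was 48.1 ± 6.60% in WT and 31.9 ± 3.57% in KO-labelled libraries, and that of Timp1 was 51.2 ± 6.75% and 67.3 ± 3.62%. The libraries of PBS and LPS did not overlap for any of these shares of Mmp12, Mmp13, Mmp14, Timp1 and Timp2, under either label. In sum, the 7 MMP genes reached 569 ± 9.78 FPKM in WT PBS and 1206 ± 43.3 FPKM in WT LPS libraries, while the 3 inhibitors reached 240.3 ± 10.6 and 273 ± 15.3 FPKM. In KO-labelled libraries the MMP sum was 296 ± 5.49 FPKM under PBS and 1060.1 ± 18.2 FPKM under LPS, and the inhibitor sum 173 ± 4.11 and 219 ± 16.0 FPKM. These sums, unlike the shares, depend on the scaling. With library totals alone, a setting added for them after the data were seen, the MMP sum was still higher with LPS (912 to 1008 against 711 to 737 FPKM in WT, 791 to 804 against 382 to 396 FPKM by the KO label), but the inhibitor sum was lower (201 to 230 against 297 to 318 FPKM in WT, 151 to 177 against 221 to 230 FPKM by the KO label).

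**Figure D2:**
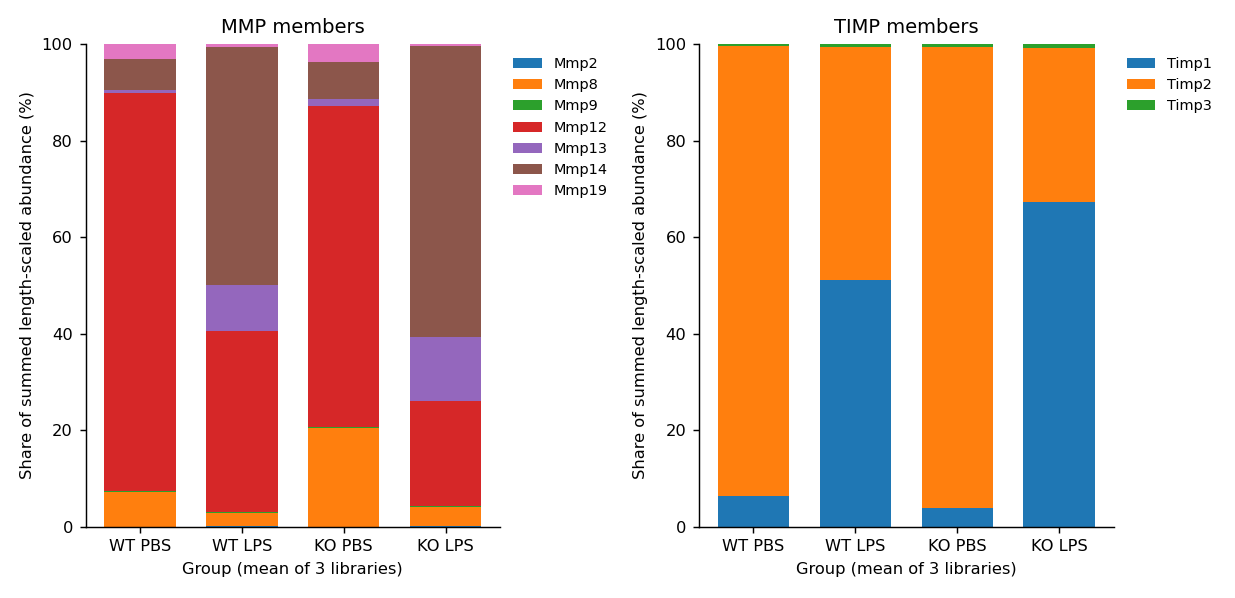
Share of each gene (vertical axis, percent of the summed length-scaled abundance of its family) in the 4 groups, as means of 3 libraries stacked to 100%. Mmp12 and Timp2 fill most of the PBS bars. Mmp14 takes the largest part of the LPS bars, and Timp1 exceeds Timp2 without overlap only in KO-labelled LPS libraries.

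The response to LPS was tested within each genotype label with edgeR's quasi-likelihood test, with Benjamini-Hochberg adjustment across the 12065 genes tested, and a gene was called at an adjusted p under 0.05. All 10 genes passed the filter on low counts. In WT, 9 of the 10 were called, 6 higher and 3 lower, against 76.7% of all genes tested, 36.5% higher and 40.2% lower. In the KO-labelled libraries all 10 were called, 7 higher and 3 lower, against 79.8% of all genes, 38.8% higher and 41.0% lower. The share of genes called was thus high throughout, and the size of the changes tells the members apart. The median log2 fold change of the 10 genes was 0.77 in WT and 1.13 in KO-labelled libraries, beside -0.048 and -0.041 over all genes tested. With TMM, 47.6% of the calls in WT and 48.6% in KO-labelled libraries were higher with LPS, as against 32.5% and 33.8% with upper-quartile scaling and 21.2% and 20.8% with totals alone. Cell type markers moved with LPS too, given here with TMM. Of 4 resident macrophage markers, 2 rose and 2 fell in WT, and 2 rose and 1 fell by the KO label. Cd79b and Cd4, the only B cell and T cell markers tested, fell under either label, and the mast cell marker Kit rose. By the KO label only, the eosinophil marker tested fell and 2 mesothelial markers rose. Their part in the responses was not tested.

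Collagen is cut by Mmp13, the main interstitial collagenase of rodents, and by the membrane-bound Mmp14, and these were the members with the largest rise. Mmp13 (gene 17386, chromosome 9 from 7272514 to 7283333, plus strand, GRCm38.p6) stood at 10.3, 11.6 and 9.90 CPM in WT PBS and at 265, 336 and 317 CPM in WT LPS libraries. KO-labelled libraries held 12.3, 11.9 and 11.7 CPM with PBS and 392, 361 and 386 CPM with LPS. All LPS libraries thus lay far above all PBS libraries, and the log2 fold change was 4.85 ± 0.0941 (mean ± SE, adjusted p = 3.41e-17) in WT and 4.99 ± 0.0938 (adjusted p = 1.78e-17) in KO-labelled libraries. Mmp14 (gene 17387, chromosome 14 from 54431598 to 54442456, plus strand) stood at 112, 115 and 127 CPM in WT PBS and at 2056, 1795 and 1924 CPM in WT LPS libraries. By the KO label it went from 63.9, 69.5 and 84.1 CPM to 2080.2, 2029 and 2091 CPM. Its log2 fold change was 4.03 ± 0.0946 (adjusted p = 3.43e-16) in WT and 4.83 ± 0.0985 (adjusted p = 4.56e-17) in KO-labelled libraries, with no overlap of PBS and LPS under either label. Mmp2 (gene 17390, chromosome 8 from 92827290 to 92853421), whose precursor MMP14 activates, was counted only 8, 7 and 17 times in WT PBS and 82, 70 and 83 times in WT LPS libraries. Its counts by the KO label were 13, 18 and 14 with PBS and 72, 75 and 85 with LPS. The rise was 3.53 ± 0.236 (adjusted p = 4.97e-10) in WT and 3.16 ± 0.222 (adjusted p = 7.82e-10) in KO-labelled libraries, at a level that stayed under 6 CPM. Fibroblasts are a known source of Mmp2, and of the 6 fibroblast markers 5 were tested, of which 4 rose with LPS under either label with TMM (median 0.63 in WT and 0.59 in KO-labelled libraries) and 0 rose with totals alone. Their part in these results was not tested.

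Among the inhibitors, Timp1 rose and Timp2 fell. Timp1 (gene 21857, chromosome X from 20870166 to 20874737, plus strand, inside Syn1 on the opposite strand) is a secreted inhibitor that acts only weakly on membrane-bound MMPs such as MMP14. It stood at 14.0, 13.2 and 13.4 CPM in WT PBS and at 97.9, 137 and 136 CPM in WT LPS libraries, with WT LPS replicate 1 the lowest of its group. In KO-labelled cells it went from 5.74, 6.74 and 5.35 CPM to 134, 145 and 113 CPM. The log2 fold change was 3.19 ± 0.134 (adjusted p = 1.19e-11) in WT and 4.46 ± 0.147 (adjusted p = 5.71e-13) in KO-labelled libraries. Timp2 (gene 21858, chromosome 11 from 118301061 to 118355411, minus strand), which binds MMP14 at the cell surface, stood at 873, 807 and 810.0 CPM in WT PBS and at 528, 473 and 452 CPM in WT LPS libraries. In KO-labelled cells it went from 596, 609.6 and 627 CPM to 247, 256 and 271 CPM. Every LPS library lay below every PBS library, and Timp2 fell by 0.78 (SE 0.0641, adjusted p = 7.89e-09) in WT and by 1.24 (SE 0.0650, adjusted p = 1.40e-11) in KO-labelled libraries on the log2 scale. The 2 inhibitors therefore moved in opposite directions under either label.

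Timp3 (gene 21859, chromosome 10 from 86300412 to 86349505), an inhibitor that binds to the matrix, stayed low, with 6.18, 4.79 and 6.00 CPM in WT PBS and 11.2, 9.74 and 7.84 CPM in WT LPS libraries. In KO-labelled cells it stood at 4.87, 5.69 and 4.85 CPM with PBS and at 7.98, 9.06 and 8.40 CPM with LPS. It passed as higher with TMM, by 0.76 ± 0.131 (adjusted p = 6.08e-05) in WT and 0.72 ± 0.137 (adjusted p = 0.000133) in KO-labelled libraries, but with totals alone it did not pass, at 0.09 and -0.08. Its deposited counts held decimals in all 12 libraries, and it lies inside Syn3 on the opposite strand without overlap of exons. Mmp9 (gene 17395, chromosome 2 from 164940326 to 164955850), a gelatinase stored in neutrophil granules and also made by macrophages, was similarly low. It stood at 4.59, 3.72 and 3.90 CPM in WT PBS and at 7.98, 6.09 and 6.77 CPM in WT LPS libraries, and in KO-labelled cells at 1.26, 1.51 and 1.20 CPM with PBS and at 4.11, 3.18 and 4.29 CPM with LPS. It rose by 0.77 ± 0.136 (adjusted p = 7.52e-05) in WT, which did not pass with totals alone (0.11), and by 1.54 ± 0.182 (adjusted p = 7.07e-07) in KO-labelled libraries, which did (0.74).

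Of the remaining MMPs, Mmp19 and Mmp8 fell and the response of Mmp12 depended on the scaling. Mmp19 (gene 58223, chromosome 10 from 128790910 to 128800827), a secreted MMP with several basement membrane substrates, went from 59.7, 56.9 and 60.4 CPM to 23.7, 19.4 and 22.0 CPM in WT. The KO-labelled libraries went from 39.0, 37.5 and 39.8 CPM to 12.6, 12.5 and 12.3 CPM. It fell by 1.44 (SE 0.0698, adjusted p = 5.61e-12) and by 1.63 (SE 0.0759, adjusted p = 2.75e-12) on the log2 scale. Its counts held decimals in all 12 libraries, and its exons overlap those of Tmem198b and Gm47093 on the opposite strand, so reads of these genes may not be fully told apart. Mmp8 (gene 17394, chromosome 9 from 7558429 to 7568486), the collagenase first known from neutrophils, went from 102, 99.0 and 98.8 CPM to 78.4, 79.9 and 76.3 CPM in WT and from 149, 148 and 145 CPM to 105, 98.5 and 107 CPM in KO-labelled cells. It fell by 0.35 (SE 0.0536, adjusted p = 1.37e-05) and by 0.51 (SE 0.0530, adjusted p = 1.56e-07). Neutrophil markers were near 0. Only 1 of the 6 with a count table entry passed the filter, and it rose with LPS. Their sum was 1.63 to 1.68 CPM in WT PBS, 4.28 to 4.91 CPM in WT LPS, 2.34 to 2.67 CPM in KO-labelled PBS and 5.69 to 6.69 CPM in KO-labelled LPS libraries, with Camp, Mpo, Elane and Retnlg at 0 in WT PBS, Mpo, Elane and Retnlg in WT LPS, Camp and Retnlg in KO-labelled PBS and Mpo in KO-labelled LPS libraries. Their part in the result was not tested.

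Mmp12 (gene 17381, chromosome 9 from 7344397 to 7360461, plus strand, with an exon overlap with Mmp1b on the opposite strand) stood at 1685, 1664 and 1718 CPM in WT PBS and at 1386, 1757 and 1781 CPM in WT LPS libraries. KO-labelled libraries held 707, 735 and 685 CPM with PBS and 749, 881 and 865 CPM with LPS. The WT groups overlapped, with a difference of -0.04 ± 0.0841 (95% interval -0.22 to 0.14, adjusted p = 0.662). In KO-labelled libraries it passed as higher by 0.23 ± 0.0844 (adjusted p = 0.0195), but not with upper-quartile scaling (-0.13), without a filter on low counts (0.19), with a minimum of 10 counts in all libraries (0.18), or when KO PBS replicate 1 (0.22) or 3 (0.20) or KO LPS replicate 2 (0.19) or 3 (0.20) was left out. Its adjusted p ranged from 1.42e-05 to 0.211 over the alternatives. As deposited, Mmp12 was counted 46602, 46507 and 48063 times in WT PBS and 23956, 30850 and 31578 times in WT LPS libraries of similar totals. The TMM factors were 1.26 to 1.27 in the former and 0.786 to 0.808 in the latter. With totals alone Mmp12 passed as lower, at -0.70 in WT and at -0.57 in KO-labelled libraries. Relative to TMM, that scaling moved the median change of all genes by -0.66 in WT and -0.80 in KO-labelled libraries, and upper-quartile scaling by -0.31 and -0.36.

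**Figure D3:**
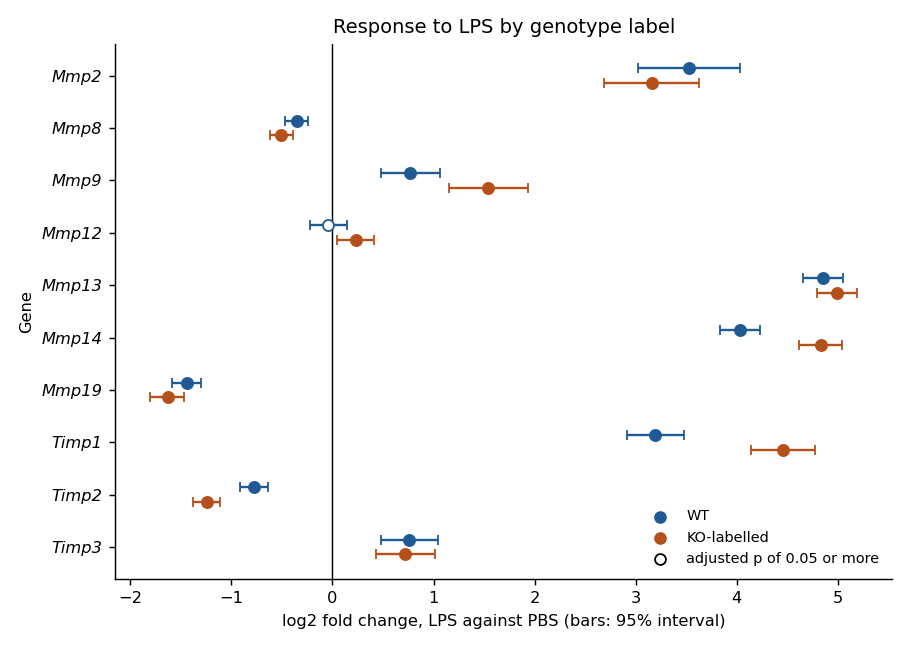
Log2 fold change of LPS against PBS (horizontal axis) for each of the 10 genes in WT and in KO-labelled libraries, with bars for the 95% interval and open points for an adjusted p of 0.05 or more. Mmp13, Mmp14, Timp1 and Mmp2 lie above 3 under either label, and Mmp12 in WT is the only open point, at -0.04.

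**Figure D4:**
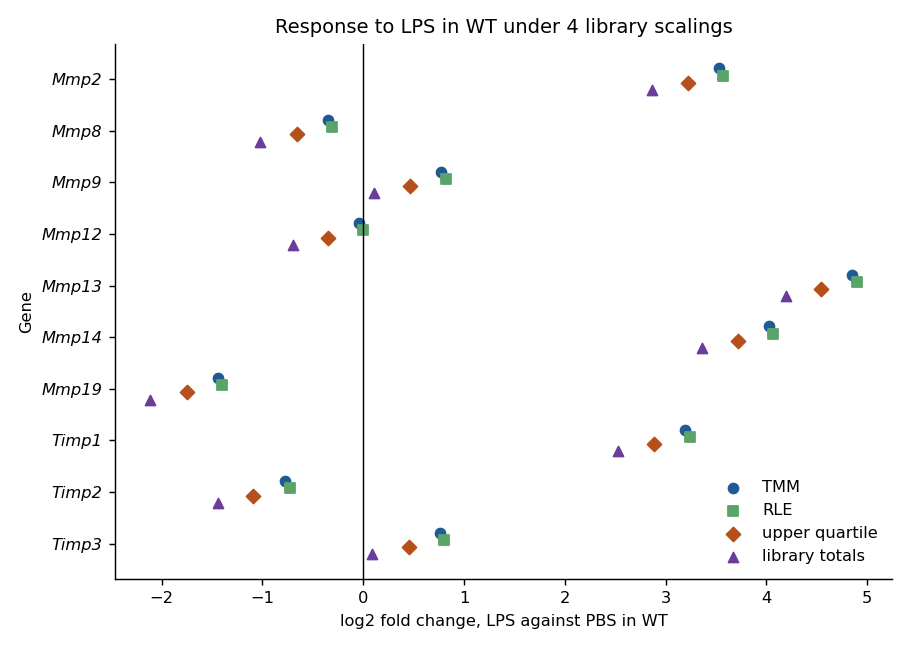
Log2 fold change of LPS against PBS in WT (horizontal axis) for each of the 10 genes under TMM, RLE, upper-quartile and library-total scaling. Another scaling shifts the 10 genes by similar amounts, so that Mmp9, Mmp12 and Timp3 come to 0.11, -0.70 and 0.09 with totals while Mmp13 stays at 4.19 and Mmp14 at 3.36.

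Among the genes with a start site sequence at hand, Mmp13, Mmp14 and Timp1 rose most. Their sequences are shown because these members moved together, beside that of Mmp12, the neighbour of Mmp13 on chromosome 9, whose WT groups overlapped. Mmp2, which rose more than Timp1 in WT, had no such sequence. The RefSeq table of GRCm38.p6 held the window from 250 bases before to 50 bases after the start for 7 of the 10 genes, with 2 start sites for Mmp12. Capitals mark matches on either strand to AP-1 (TGANTCA), PEA3 (AGGAAG) and the NF-κB consensus, and in the windows shown no matches overlap. The windows lie at chr9:7272264-7272563 (Mmp13), chr14:54431348-54431647 (Mmp14), chrX:20869916-20870215 (Timp1) and chr9:7347124-7347423 (Mmp12, downstream start), each on the plus strand.
Mmp13: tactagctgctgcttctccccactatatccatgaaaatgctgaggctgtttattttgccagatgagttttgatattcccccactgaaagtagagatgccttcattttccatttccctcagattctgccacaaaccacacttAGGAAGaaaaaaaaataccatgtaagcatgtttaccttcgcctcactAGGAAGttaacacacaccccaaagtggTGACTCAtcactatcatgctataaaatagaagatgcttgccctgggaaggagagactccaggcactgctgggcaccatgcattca
Mmp14: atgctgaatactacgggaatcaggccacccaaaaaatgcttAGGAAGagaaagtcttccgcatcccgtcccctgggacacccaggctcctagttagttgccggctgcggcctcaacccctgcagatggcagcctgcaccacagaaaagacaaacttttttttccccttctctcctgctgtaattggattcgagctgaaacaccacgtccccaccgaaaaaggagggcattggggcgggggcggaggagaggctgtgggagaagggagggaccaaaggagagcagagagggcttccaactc
Timp1: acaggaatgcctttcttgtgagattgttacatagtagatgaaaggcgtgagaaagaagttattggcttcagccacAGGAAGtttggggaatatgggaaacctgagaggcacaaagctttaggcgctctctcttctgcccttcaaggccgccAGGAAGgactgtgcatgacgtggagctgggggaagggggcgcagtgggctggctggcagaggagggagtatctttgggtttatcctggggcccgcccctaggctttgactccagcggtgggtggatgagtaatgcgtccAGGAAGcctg
Mmp12: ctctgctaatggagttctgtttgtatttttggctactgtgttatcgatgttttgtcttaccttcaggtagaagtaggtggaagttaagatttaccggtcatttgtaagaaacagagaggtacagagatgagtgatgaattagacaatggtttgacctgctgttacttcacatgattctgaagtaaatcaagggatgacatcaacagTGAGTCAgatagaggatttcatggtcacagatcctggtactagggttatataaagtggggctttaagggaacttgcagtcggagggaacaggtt

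Mmp13 held an AP-1 match starting 35 bases before its start site and PEA3 matches starting 109 and 62 bases before it, as well as the letters TATAAA at 16 bases before it. Timp1 held 3 PEA3 matches and Mmp14 held 1, and neither held an exact match to TGANTCA in this window. The Timp1 window holds the letters TGAGTAA, which differ from that pattern by 1 base, and such variants were not searched for. The downstream start of Mmp12 held an AP-1 match 44 bases before the start, while the upstream start held a PEA3 match and an NF-κB match. Of the 32851 promoter windows in the table, 7.8% held an AP-1 match, 35.4% a PEA3 match, 8.5% an NF-κB match and 13.6% TATAAA. These matches are a description of the letters only. No sequence window was used here for Mmp2, Mmp9 and Mmp19.

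KO-labelled and WT libraries were next compared under PBS, to describe the resting state by label. Of the 10 genes, 7 were called, 1 higher and 6 lower by the KO label, against 25.3% of all genes tested, 12.3% higher and 13.0% lower. Elastase, gelatinase and inhibitor mRNAs were among the lower ones. Mmp12 was lower by 1.25 log2 units (-1.25 ± 0.0854, adjusted p = 4.97e-08), which is 2.38-fold, and the highest KO-labelled library lay at 735 CPM while the lowest WT library lay at 1664 CPM. Mmp9 had a difference of -1.61 ± 0.166 (adjusted p = 3.80e-06), the largest of the 10, and Timp1 one of -1.19 ± 0.154 (adjusted p = 8.62e-05). Smaller differences were called for Mmp14 (-0.70 ± 0.0864, adjusted p = 2.30e-05), Mmp19 (-0.61 ± 0.0646, adjusted p = 5.73e-06) and Timp2 (-0.44 ± 0.0637, adjusted p = 0.000113). Only Mmp8 was higher by the KO label, by 0.56 ± 0.0524 (adjusted p = 1.52e-06), with 145 to 149 CPM against 98.8 to 102 CPM. For these 7 genes the WT and KO-labelled libraries did not overlap, as a description only, since the share of all genes without overlap was not counted. Mmp2 (0.46, 95% interval -0.24 to 1.15), Mmp13 (0.18, -0.03 to 0.38) and Timp3 (-0.14, -0.42 to 0.14) were not called, although every KO-labelled library lay above every WT library for Mmp13. The directions of the 7 calls were the same under each of the 3 other scalings. Over all genes, 48.5% of the calls were higher by the KO label with TMM, 42.1% with upper-quartile scaling and 61.6% with totals alone. Cxcr2, the neutrophil marker that passed the filter, was also higher by the KO label, by 0.68, and its part in the difference of Mmp8 was not tested. Of 4 markers of resident peritoneal macrophages, summing to 6.28 to 6.73 CPM against 6.98 to 7.72 CPM in WT, 3 were lower and 1 higher by the KO label, among them Timd4 (-1.93) and Gata6 (-1.30). Of 7 macrophage markers 1 was lower and 0 were higher. The 4 skeletal muscle markers summed to 0.106 to 18.0 CPM against 16.2 to 21.1 CPM in WT, and none was called. The 6 mesothelial markers summed to 3.76 to 5.92 CPM against 7.58 to 8.47 CPM in WT, without overlap, and 2 were lower by the KO label (1 with totals alone), Wt1 (-1.61) and Upk3b (-1.11). Mast cell markers (0.175 to 0.456 CPM against 0.644 to 0.904 CPM, Kit lower by the KO label at -1.39) and T cell markers (0.983 to 1.23 CPM against 1.70 to 1.93 CPM, with the 1 tested not called) did not overlap either. The mast cell sum was mostly Kit (means of 0.270 CPM by the KO label and 0.718 CPM in WT). The T cell sum was mostly Cd4 (1.11 and 1.78 CPM). The part of these in the differences was not tested.

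Under LPS, 6 of the 10 genes were called between the labels, 2 higher and 4 lower by the KO label, against 41.4% of all genes tested, 22.1% higher and 19.3% lower. The share of higher calls over all genes was 53.4% with TMM, 41.5% with upper-quartile scaling and 37.9% with totals alone. Mmp12 was again lower, at -0.98 ± 0.0851 (adjusted p = 3.10e-07), with 749 to 881 CPM against 1386 to 1781 CPM in WT. Timp2 differed by -0.91 ± 0.0648 (adjusted p = 4.15e-08), with 247 to 271 CPM against 452 to 528 CPM. Mmp9 (-0.85 ± 0.150, adjusted p = 0.000305) and Mmp19 (-0.80 ± 0.0809, adjusted p = 1.55e-06) were also lower. Higher by the KO label were Mmp8 (0.41 ± 0.0542, adjusted p = 2.38e-05) and Mmp13 (0.31 ± 0.0761, adjusted p = 0.00360). The neutrophil marker Cxcr2 was also higher by the KO label (0.38, adjusted p = 0.0231) with TMM, but was not called with upper-quartile scaling or totals alone, and its part was not tested. WT and KO-labelled libraries were separate for each of the 6 members called, again without a share over all genes to set beside it. Mmp14 (0.10, 95% interval -0.07 to 0.28), Timp1 (0.08, -0.18 to 0.33), Mmp2 (0.09, -0.27 to 0.45) and Timp3 (-0.17, -0.46 to 0.11) were not called, and their groups overlapped. Thus Mmp14 and Timp1, both lower by the KO label at rest, overlapped between the labels after LPS, with intervals that leave room for differences of up to 0.28 and 0.33. Fibroblast markers moved with the label too, since all 5 tested were lower by the KO label, with a median of -1.12 under PBS and -0.98 under LPS. Fibroblasts are known to express Timp1, Timp2 and Mmp14, and the part of these cells in the differences was not tested. Of the 7 macrophage markers, 3 were lower by the KO label under LPS, namely Mertk (-1.24, 233 CPM in WT and 98.3 CPM by the KO label), Csf1r (-0.53) and Cd68 (-0.21). Of the 4 resident macrophage markers, 2 were lower, Timd4 (-2.21) and Gata6 (-1.06), with sums of 5.85 to 6.57 CPM against 11.6 to 14.5 CPM in WT. All 4 skeletal muscle markers were lower, with sums of 0.123 to 0.249 CPM against 26.5 to 32.2 CPM in WT and Myh4 and Tnnt3 at 0 by the KO label. The mesothelial sum was 6.37 to 7.52 CPM against 8.12 to 9.17 CPM in WT, again without overlap, with 1 of the 6 markers lower, Wt1 (-1.46). Kit, the 1 mast cell marker tested, was higher by the KO label (1.54). Of the other mast cell markers, Cpa3 and Mcpt4 were at 0 with LPS under either label, and Tpsb2 was at 0 by the KO label. The 1 eosinophil marker tested was lower (-0.86). Their part in the differences was not tested either.

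**Figure D5:**
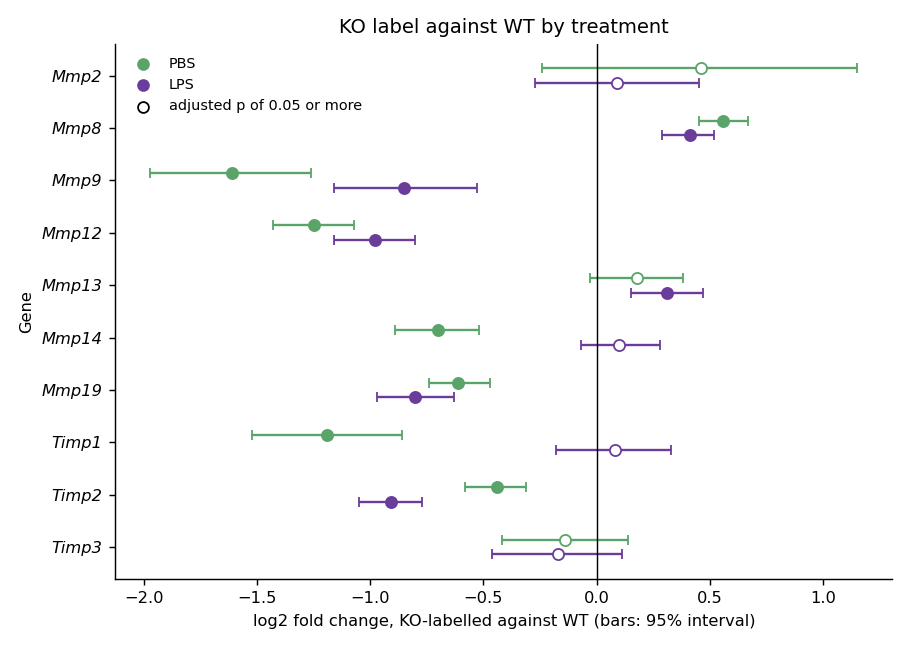
Log2 fold change of KO-labelled against WT libraries (horizontal axis) for each of the 10 genes under PBS and under LPS, with bars for the 95% interval and open points for an adjusted p of 0.05 or more. Mmp12, Mmp9, Mmp19 and Timp2 lie below 0 under both treatments, Mmp8 lies above 0, and Mmp14 and Timp1 lie below 0 only under PBS, at -0.70 and -1.19.

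Whether LPS moved the genes by a different amount under the labels was tested as the interaction, the response in KO-labelled libraries minus that in WT. It was called for 4 of the 10 genes, 3 more positive and 1 more negative by the KO label, against 18.0% of all genes tested, 9.78% more positive and 8.24% more negative. Positive interactions made up 54.3% of all calls with TMM, 43.1% with upper-quartile scaling and 24.4% with totals alone. Timp1 had the largest interaction at 1.26 ± 0.194 (adjusted p = 0.000556), that is, a rise of 9.15-fold in WT and of 21.9-fold in KO-labelled libraries. Mmp14 followed at 0.81 ± 0.120 (adjusted p = 0.000249), with rises of 16.3-fold and 28.5-fold. For Timp2, the interaction of -0.47 ± 0.0905 (adjusted p = 0.00204) reflects a fall of 1.71-fold in WT and of 2.37-fold by the KO label. Mmp9 had an interaction of 0.77 ± 0.228 (adjusted p = 0.0286), which did not pass with totals alone (0.63, adjusted p = 0.0542). It was also lost in 7 of the 12 fits that each left out 1 library, namely WT PBS replicate 1, WT LPS replicates 2 and 3, KO PBS replicates 1 and 3, and KO LPS replicates 1 and 3, where it lay between 0.64 and 0.75. Its adjusted p ranged from 0.00987 to 0.0844 over the alternatives. The other 3 calls held under each alternative tried. Mmp8 (-0.15, adjusted p = 0.190) and Mmp19 (-0.19, adjusted p = 0.230) were not called with TMM but were with totals alone (-0.29 and -0.33), while Mmp12 (0.27), Mmp13 (0.13), Mmp2 (-0.37) and Timp3 (-0.03) were not called with either. Cell type markers had called interactions as well. Of the 7 macrophage markers, 3 were more negative by the KO label, Mertk (-1.29), Csf1r (-0.58) and Cd68 (-0.27), and 1 was more positive, Adgre1 (0.27), which was not so called with totals alone. Icam2 (-0.83), 1 of the 4 resident macrophage markers, and Ckm (-4.54), 1 of the 4 skeletal muscle markers, were more negative, and with totals alone 2 of the muscle markers were. All 4 muscle markers were called lower with LPS in KO-labelled libraries, with a median of -6.82. Their PBS and LPS libraries overlapped there, since 1 KO-labelled PBS library summed to 0.106 CPM, below the 0.123 to 0.249 CPM with LPS. None was called in WT, where their median was 0.61. Kit, the 1 mast cell marker tested, was more positive (2.94). None of the 5 fibroblast or 6 mesothelial markers tested had a called interaction with TMM. The part of these markers in the interactions was not tested.

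The other genes of the pathway were taken from lists written from general knowledge, but with earlier results of these data known. Their counts beside the shares of all genes are therefore a description. With TMM, their counts stand against 36.5% of all genes tested higher and 40.2% lower with LPS in WT, and 38.8% and 41.0% in KO-labelled libraries. Of 15 further MMPs and inhibitors in the tables, 5 passed the filter on low counts, and with LPS in WT 2 rose and 2 fell. Mmp25, an MMP anchored in the membrane by lipid, went from 0.299 ± 0.114 CPM to 63.7 ± 7.82 CPM in WT and from 0.176 ± 0.0704 to 43.6 ± 6.28 CPM in KO-labelled libraries, a rise of 7.71 ± 0.192 in WT (adjusted p = 1.20e-15). Under LPS it was lower by the KO label (-0.55 ± 0.104, adjusted p = 0.000566). Mmp27 (-0.64) and Mmp24 (-0.59) fell with LPS in WT. Timp4 reached at most 0.0569 CPM in any library, which is under the floor. Of the 14 ADAM and ADAMTS proteinases tested, relatives of the MMPs that shed surface proteins or cut proteoglycans, 4 rose and 4 fell in WT and 8 rose and 5 fell in KO-labelled libraries with TMM. With totals alone 3 rose and 7 fell in WT and 4 rose and 7 fell by the KO label. Adamts4, an aggrecanase, stood at 0.120 CPM in WT PBS, near the floor, and at 13.2 ± 1.10 CPM in WT LPS libraries, while Adam19 (-2.36) and Adam8 (-1.36) fell.

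Plasmin, made from plasminogen, is an activator of MMP precursors, and its regulators moved with LPS as well. Of 6 genes tested, 4 rose and 2 fell under either label with TMM, and 3 rose and 2 fell with totals alone. Serpinb2, an inhibitor of plasminogen activation, rose by 4.20 in WT and 6.52 by the KO label, as did the receptor Plaur (2.07 and 2.74), while the protease Plau fell (-1.70 and -1.53). The interaction was called for Serpinb2 (2.31 ± 0.189, adjusted p = 1.01e-06) and Plaur (0.67), among the genes named here. Of 8 activators and binding partners of MMPs tested, 6 rose and 0 fell in WT with TMM, against 36.5% and 40.2% of all genes, and 5 rose and 3 fell with totals alone. By the KO label 5 rose and 1 fell with TMM, and 5 rose and 3 fell with totals alone. Furin, the protease that activates MMP14, went from 183 ± 8.99 to 1535 ± 266 CPM in WT (log2 fold change 3.07 ± 0.107, adjusted p = 2.66e-13) and rose by 2.78 in KO-labelled libraries. Lcn2, which binds MMP9, rose by 9.18 and 10.55, and Cd44, a docking site for MMP9 and MMP14, by 1.97 and 2.41. Among 5 genes of matrix cathepsins and their inhibitor cystatin C, 4 rose with LPS in WT with TMM but all 5 fell with totals alone, so no direction is given for them. By label, 2 of the 5 were lower and 0 higher under PBS with TMM, against 13.0% and 12.3% of all genes, and 2 lower and 1 higher with totals alone. Under LPS 4 were lower and 1, Ctss (0.23, adjusted p = 0.0268), was higher with TMM, against 19.3% and 22.1%, while 4 were lower and 0 higher with upper-quartile scaling or totals alone. Ctsl was lower in KO-labelled libraries under PBS (-0.90, adjusted p = 5.57e-07) and LPS (-0.82, adjusted p = 6.89e-07), as was Ctsk, a collagen-degrading cathepsin (-0.89 and -0.73). Of the 11 transcription factors tested from the families known to act on MMP promoters, 9 rose and 2 fell with LPS under either label with TMM, and 8 rose and 2 fell with totals alone. The 2 that fell, named after their values were seen, were the AP-1 subunits Fos (-1.26 in WT, -1.89 by the KO label) and Jun (-1.26 and -1.91), with called interactions of -0.63 and -0.64. Ets2 rose by 3.44 in WT and 4.59 in KO-labelled libraries, Junb by 3.28 and 3.55, and Fosl2 had an interaction of 1.18 ± 0.157 (adjusted p = 0.000139).

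The genes whose pattern was most like that of selected members were found by Pearson's correlation of log2 CPM over the 12 libraries, among the 8722 genes that averaged 5 CPM or more. For Mmp12, the MMP with the highest mean CPM over the 12 libraries, these were Ctsl (r = 0.990), Fcna (0.985) and Ccl6 (0.982), and only 13 genes exceeded 0.95. For Timp2, the inhibitor with the highest mean CPM over the 12 libraries although not the highest per length in each group, they were Pdia4 (0.998), Sdf2l1 (0.995) and Colgalt1 (0.995), with 235 genes over 0.95. For Timp1, the member with the largest interaction, they were Rhoc, Bcl2a1a and Clec4a1 (each 0.998), with 1512 genes over 0.95. All points share the same libraries and the split between PBS and LPS, and the values are a description.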

How the data were processed

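mRNA was sequenced as single-end reads on a BGISEQ-500 in 12 libraries, and the values deposited by the authors are expected counts (estimated counts per gene, with decimals in 24.6% to 26.9% of values), not scaled between libraries. The submitters' processing notes name Bowtie2, RSEM 1.3.1 and GRCm38.p6, whereas the study's methods name STAR and HTSeq, and the decimals are of a kind that whole-read counting does not give. Expected counts share reads between genes with similar sequence, and strandedness is not given in the sources used here.

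Counts were rounded and tested in R 4.3.3 with edgeR 4.0.16 (filterByExpr on the 4 groups, 12065 genes kept, TMM, 1 robust quasi-likelihood model with 1 mean per group over all 12 libraries). Two-sided p-values were adjusted (Benjamini-Hochberg) across all genes tested, and 0.05 was the threshold. Folds and 95% intervals come from that model. Lengths came from the GENCODE basic annotation of GRCm38, and positions and promoters from RefSeq on GRCm38.p6 (99.3% of genes matched). The labels do not say how many mice each library came from, so p-values measure the spread between these libraries. The pipeline was tested on simulated data.

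All members are named. Of each further list, at most 4 genes are named (1 that the rule selects is not reported here), being those called with the largest change and at least 5 CPM in the higher group. The members and lists were chosen with earlier results of these data known. The alternatives were RLE, upper-quartile and total-count scaling, DESeq2 1.42.0, no filter or a minimum of 10 counts per library, fitting the compared groups alone, a block for the replicate number, and leaving out each library. Markers of B cells, T cells, mast cells, eosinophils and mesothelium were also summed, and none of these sums exceeded 9.17 CPM in a library.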

Additional observations from a re-analysis of the deposited data

Results flagged for a closer look

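For 4 members the response to LPS differed between the genotype labels by a test of the difference itself. The interaction was 1.26 for Timp1, 0.81 for Mmp14, 0.77 for Mmp9 and -0.47 for Timp2. For Timp1 and Mmp14 the difference between the labels lay in the PBS libraries, at 5.35 to 6.74 CPM against 13.2 to 14.0 CPM and at 63.9 to 84.1 CPM against 112 to 127 CPM, while the LPS libraries overlapped. For Timp2 it was present under PBS and larger under LPS. For Mmp9 it was smaller under LPS than under PBS, on counts of 34 to 138 per library. The interaction of Mmp9 was not called in 7 of the 12 edgeR fits that left out 1 library, nor with totals alone (adjusted p = 0.0542).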

How the results depend on the processing

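The number of members called stayed within 1.5 times of that reported under every alternative run. With the replicate block, 9, 10, 7, 6 and 4 of the 10 members were called for the LPS response in WT, the LPS response by the KO label, the label difference with PBS, that with LPS, and the interaction, as without it, and no call of a member changed. Deviations of same-numbered libraries from the group means correlated between -0.076 and 0.127, and those of other pairs between -0.181 and 0.170. With 3 libraries per group, this cannot show whether libraries of the same number share an origin. Directions turned in these cases. Mmp12 in WT with LPS came to 0.00 with RLE scaling and 0.00 with DESeq2, and to between -0.10 and 0.07 with 1 library left out, being positive only without WT LPS replicate 1. Mmp12 in KO-labelled libraries came to -0.13 with upper-quartile scaling and -0.57 with totals alone. Timp3 in KO-labelled libraries came to -0.08, Timp1 between the labels under LPS to -0.01 and the interaction of Mmp13 to -0.01 with totals alone. The LPS minus PBS difference of the summed inhibitors turned from 32.7 to -86.0 FPKM in WT and from 46.0 to -61.1 FPKM by the KO label with totals alone, with no test. With 1 library left out, Timp1 between the labels under LPS lay between -0.07 (without WT LPS replicate 1) and 0.17 and the interaction of Timp3 between -0.16 and 0.09. None of the tested values among these was called as reported except the rise of Mmp12 and Timp3 in KO-labelled libraries. Mmp2 did not enter the fit with at least 10 counts in every library, and its counts of 7 to 18 under PBS limit its folds. The causes were not tested.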
